A study of Mus musculus with 24 samples.

Results

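NELF sites without strong SPT5 were regions where both NELF subunits gave strong chromatin immunoprecipitation (ChIP-seq) signal and SPT5, a subunit of the elongation factor DSIF, did not. In each of the 6 peak lists, a region was called strong when it was among the 10000 of highest pileup (the authors' mean ChIP coverage of the region) on chromosomes 1 to 19, leaving out chromosome 14 beyond 95 Mb. A site is a strong region of NELFE replicate 1, shorter than 3000 bp, that overlapped a strong region of NELFE replicate 2 and of both NELFB:HA libraries and no strong region of either SPT5 library. The sites were thus chosen by measured pileup. This gave 265 sites among 6495 short regions strong in all 4 NELF lists (4.08%), out of 8349 short strong regions, 10000 strong regions and 197925 listed regions of NELFE replicate 1. Among all 10000 strong NELFE replicate 1 regions, 10.5% overlapped no strong SPT5 region. Their low SPT5 is a description and not a result.

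All 6 libraries came from E14, a mouse embryonic stem cell line, carrying a genotype labelled Nelfb deg and grown in serum with LIF. In these cells NELFB bears an HA tag, and the protein can be degraded with dTAG-13. The 6 libraries are labelled Control, with 2 each for NELFB:HA (precipitated with an HA-tag antibody), NELFE and SPT5 (precipitated with an anti-DSIF antibody). All groups therefore share the tagged genotype, and the labels do not say whether it is 1 clone or whether replicates are separate cultures. The other 18 of the 24 samples in the series, which include libraries treated with 500 nM dTAG-13 for 30 min, are not analysed here.

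NELF is a multi-subunit complex that binds RNA polymerase II shortly after initiation and holds it in promoter-proximal pausing. It does so together with DSIF, the complex of SPT5 and SPT4. P-TEFb phosphorylates both factors and the polymerase, after which NELF leaves while DSIF travels on with elongating polymerase through the gene body. NELFB and NELFE sit in the same complex, so the pair of antibodies reads 1 complex through separate subunits.

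Depth after the authors' filtering ranged from 27324697 to 62312558 ChIP tags. The NELF libraries had 50-base tags extended to 227 bp, whereas the SPT5 libraries had tags of 100 or 101 bases extended to 206 bp and shared 1 input of 50899697 tags. Antibody and these library differences cannot be told apart. Of 7 embryonic stem cell markers with an annotated start, 5 had a strong region in all 6 lists, among them Pou5f1 and Sox2. Nanog had one in both SPT5 lists and in no NELF list, and Esrrb had none in any list. None of 3 feeder fibroblast markers had one in any list. Of 3 trophectoderm markers, Eomes had a strong region in 1 list and the others in none.

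The promoters below belong to the sites with the highest mean NELF rank, and show what kind of sequence lies under a strong NELF site with weak SPT5. Each is the RefSeq sequence of GRCm38.p6 (the assembly behind mm10) from 100 bases before the annotated start through the first 20 bases of the gene, on the gene's own strand, 5′ to 3′. Capitals mark any of the 15 motifs searched for, and base 0 is the annotated start. Lmbrd1 has 2 annotated starts in its site, and the upstream one is shown. The windows are chr5:39644612-39644731 (minus) for Hs3st1, chr15:6386648-6386767 (plus) for Dab2, chr13:46669377-46669496 (plus) for Fam8a1, chr1:24678444-24678563 (plus) for Lmbrd1, chr9:88438910-88439029 (minus) for Snx14, chr8:94696223-94696342 (minus) for Pllp and chr2:122147587-122147706 (plus) for B2m.
Hs3st1: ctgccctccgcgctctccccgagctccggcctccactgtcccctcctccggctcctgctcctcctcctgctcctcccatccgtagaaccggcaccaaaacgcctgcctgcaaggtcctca
Dab2: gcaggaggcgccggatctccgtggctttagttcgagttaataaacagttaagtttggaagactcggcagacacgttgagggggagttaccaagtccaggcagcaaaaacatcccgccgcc
Fam8a1: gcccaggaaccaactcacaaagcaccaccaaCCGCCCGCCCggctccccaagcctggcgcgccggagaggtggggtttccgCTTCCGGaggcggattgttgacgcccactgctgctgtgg
Lmbrd1: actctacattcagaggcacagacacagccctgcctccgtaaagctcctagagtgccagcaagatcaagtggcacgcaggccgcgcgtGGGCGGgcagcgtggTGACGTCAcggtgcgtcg
Snx14: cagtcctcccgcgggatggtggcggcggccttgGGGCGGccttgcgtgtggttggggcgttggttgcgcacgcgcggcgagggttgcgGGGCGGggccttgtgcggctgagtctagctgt
Pllp: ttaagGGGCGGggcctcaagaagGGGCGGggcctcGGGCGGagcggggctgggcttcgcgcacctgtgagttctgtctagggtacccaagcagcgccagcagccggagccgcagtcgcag
B2m: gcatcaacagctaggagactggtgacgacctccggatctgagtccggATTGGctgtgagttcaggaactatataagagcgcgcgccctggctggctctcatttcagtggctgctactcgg

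Hs3st1 and Dab2 hold none of the 15 motifs in the printed window. Fam8a1 has overlapping matches to the reverse complement of GGGCGG at -69 and -65 and 1 to that of CCGGAAG at -19. Lmbrd1 has GGGCGG at -13 and TGACGTCA at 2, Snx14 has GGGCGG at -67 and -12, and Pllp has GGGCGG at -95, -77 and -65. B2m has the reverse complement of CCAAT at -53. Hs3st1 encodes a heparan sulfate sulfotransferase, Dab2 a clathrin adaptor, Lmbrd1 a lysosomal cobalamin transporter, Snx14 a sorting nexin, Pllp the membrane protein plasmolipin and B2m the light chain of MHC class I.

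A second set shows promoters at the low end of SPT5. Msx1, a homeobox factor, had the lowest mean SPT5 fold enrichment among sites listed in both SPT5 libraries. Cgnl1 (paracingulin of cell junctions), Slc29a3 (a nucleoside transporter) and H2-D1 (a heavy chain of MHC class I) had no SPT5 region of any strength. Slc29a3 and H2-D1 were picked for display after their values were seen. The windows are chr5:37824566-37824685 (minus) for Msx1, chr9:71771583-71771702 (minus) for Cgnl1, chr10:60752763-60752882 (minus) for Slc29a3 and chr17:35262994-35263113 (plus) for H2-D1.
Msx1: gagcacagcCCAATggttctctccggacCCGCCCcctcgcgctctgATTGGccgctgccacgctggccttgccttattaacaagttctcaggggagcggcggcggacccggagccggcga
Cgnl1: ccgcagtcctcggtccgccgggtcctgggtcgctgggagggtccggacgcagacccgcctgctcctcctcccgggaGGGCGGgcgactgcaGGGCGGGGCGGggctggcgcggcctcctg
Slc29a3: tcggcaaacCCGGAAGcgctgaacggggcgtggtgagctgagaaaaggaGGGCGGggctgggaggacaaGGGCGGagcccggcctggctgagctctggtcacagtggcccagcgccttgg
H2-D1: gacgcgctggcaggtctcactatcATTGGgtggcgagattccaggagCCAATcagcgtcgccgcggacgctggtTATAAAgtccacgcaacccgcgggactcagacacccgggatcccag

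Msx1 and H2-D1 each hold 2 CCAAT matches, and H2-D1 also has TATAAA at -26. Cgnl1 has 3 GGGCGG matches between -24 and the start, the last 2 of which overlap. Slc29a3 has GGGCGG at -51 and -31 and CCGGAAG at -91. H2-D1 belongs to a family of near-identical genes, and how the authors placed reads shared between copies is not given in the sources used here, so its values are uncertain.

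Fold enrichment, the authors' ratio of ChIP coverage to local input, was higher for NELF than for SPT5 at most sites. In NELFB:HA replicates 1 and 2, the median fold over the 265 sites was 3.04 (range 1.42 to 7.12) and 2.62 (1.49 to 5.18). In NELFE replicates 1 and 2 it was 3.58 (1.38 to 7.71) and 3.73 (1.56 to 8.20). In SPT5 it was 1.94 (1.39 to 3.04) over the 254 sites listed in replicate 1 and 1.93 (1.40 to 2.90) over the 235 listed in replicate 2. The NELF and SPT5 ranges overlapped, but at 201 of the 235 sites with both SPT5 values each of the 4 NELF folds lay above both SPT5 folds. Higher NELF than SPT5 medians were not particular to the sites. Over the 5687 short NELF regions with strong SPT5 in both lists, NELFB:HA medians were 4.84 and 3.75 and NELFE medians 5.82 and 6.03. The SPT5 medians there were 2.996 and 2.925. The rule used pileup from the same tracks, so no test is given.

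**Figure D1:**
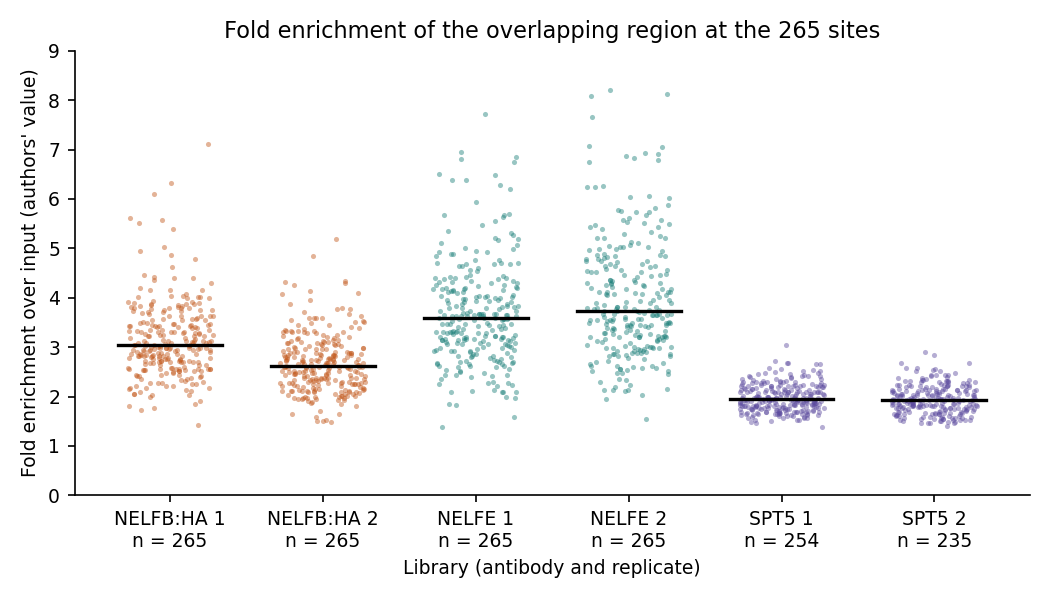
Fold enrichment over input (vertical axis, the authors' value) of the region that overlaps each site in the 6 libraries, with points for sites and bars for medians. The NELF medians lie between 2.62 and 3.73, and the SPT5 medians at 1.94 and 1.93.

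The subunits were not equally enriched. Both NELFE folds exceeded both NELFB:HA folds at 135 of 265 sites (50.9%), and the reverse held at 3 sites. This order was not particular to the sites. Over all 10000 strong regions of each list, the median fold was 4.80 and 5.11 in NELFE and 4.02 and 3.23 in NELFB:HA. A q-value of 0.01 or less was reached at 249 sites in NELFE replicate 1, 253 in NELFE replicate 2, 242 in NELFB:HA replicate 1 and 179 in NELFB:HA replicate 2. All 4 NELF libraries reached it at 154 sites (58.1%). The remaining sites were strong by pileup but fell short of that q-value in at least 1 NELF library, and 1 site had a fold under 2 in all 4.

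Ranked within its own list by fold, the NELF region at a site stood near the top, with median percentiles of 97.8 and 98.3 for NELFB:HA and 96.3 and 96.4 for NELFE. The median SPT5 percentile was 87.7 in replicate 1 and 85.8 in replicate 2. Most sites therefore held an SPT5 region above the middle of its list. Of the 235 sites with both SPT5 regions, 105 were under the 90th percentile in both. The rule asked for high NELF pileup and kept out high SPT5 pileup, so the order of these percentiles is a description. The lists also differ in length, with 449451 and 131619 regions for SPT5, so percentiles of different lists are not on 1 scale.

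SPT5 was weak rather than unlisted at most sites. An SPT5 region of any strength was listed in both replicates at 235 sites (88.7%), in replicate 1 only at 19, in replicate 2 only at 0 and in neither at 11 (4.15%).  A q-value of 0.01 or less was reached by SPT5 at 25 sites (9.43%), with 5 in replicate 1 and 23 in replicate 2. Among the 5687 short NELF regions with strong SPT5 in both lists the corresponding shares were 83.6% and 92.3%.

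Many sites lay close under the SPT5 limits. The limits were a pileup of 11.48 in replicate 1 and 19.18 in replicate 2, while the sites had a median pileup of 9.71 (highest 11.47) and 17.2 (highest 19.15). At 150 sites (56.6%) the SPT5 pileup was within 10% under the limit in at least 1 replicate. The 3 sites nearest under the limit had 11.47, 11.45 and 11.42 in replicate 1, and the 3 regions nearest above it 11.51, 11.55 and 11.57. In replicate 2 the values nearest under the limit were 19.15 (the Lmbrd1 site), 19.12 and 19.1, and those nearest above it 19.19, 19.2 and 19.23. Sites and excluded regions thus formed 1 continuous range at both limits.

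The NELF limits were also met without a gap. Just inside and just outside, the pileups were 17.27 and 17.15 for NELFE replicate 1, 16.16 and 16.02 for NELFE replicate 2, 17.06 and 16.87 for NELFB:HA replicate 1 and 12.8 and 12.73 for NELFB:HA replicate 2. The longest site spanned 2946 bp, and the shortest region kept out by length 3000 bp.

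The number of sites turned on single SPT5 libraries. Without the requirement on SPT5 replicate 1 it was 412, and without that on SPT5 replicate 2 it was 661. When the 20000 highest regions were called strong for SPT5 alone, a setting chosen after seeing the data, 32 sites were left. When strong meant a q-value of 0.01 or less in every list, 632 sites were found, and 135 of the 265 overlapped one of them.

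Most sites without strong SPT5 were among the weaker NELF regions. This is a description, since the rule used both the NELFE replicate 1 and the SPT5 pileup. The 6495 short NELF regions were divided by NELFE replicate 1 pileup into 5 bands of 1299. In the band of lowest pileup (17.27 to 26.66), 191 regions (14.7%) had no strong SPT5, followed by 50 (3.85%) and 19 (1.46%) in the next bands. In the bands of highest pileup there were 3 (0.231%) and 2 (0.154%). The lowest band therefore held 72.1% of the sites. NELF strength moved with the absence of strong SPT5, so most comparisons of position, start and width below are also given within the lowest band. The part of NELF strength in those comparisons was not otherwise tested.

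**Figure D2:**
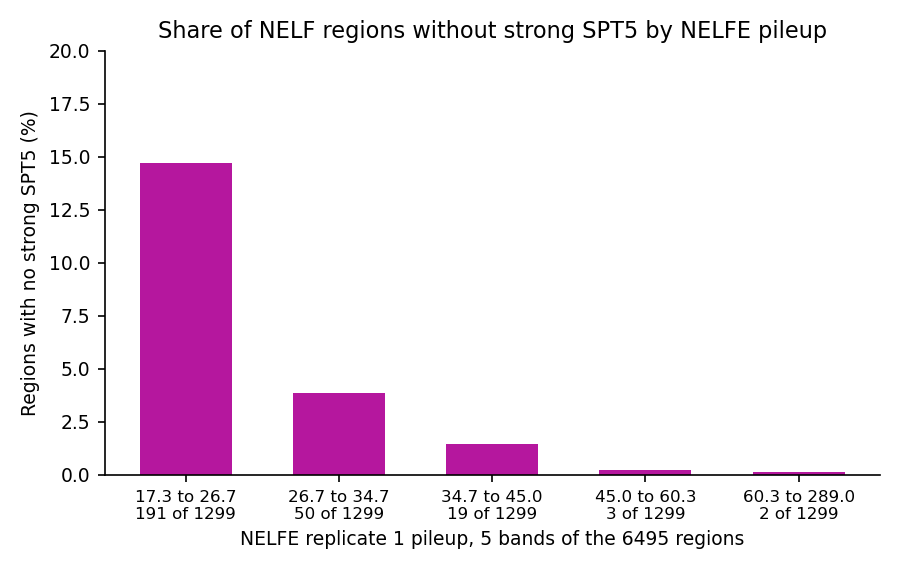
Percent of short NELF regions with no strong SPT5 (vertical axis) in 5 bands of NELFE replicate 1 pileup (horizontal axis, with counts). The bars show shares only, since the rule used both measures. The share is 14.7% in the lowest band and 0.154% in the highest.

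**Figure D3:**
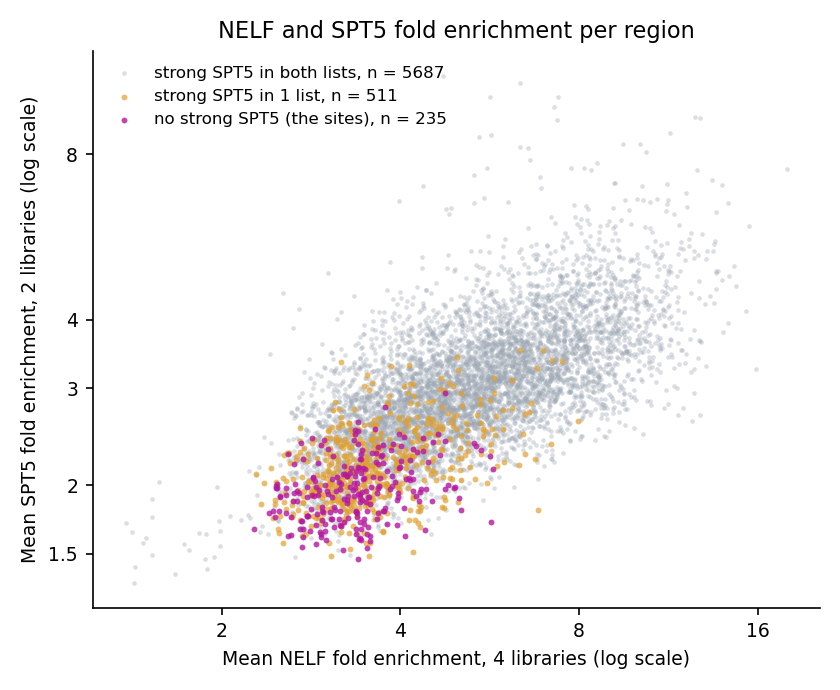
Mean SPT5 fold enrichment over 2 libraries (vertical, log scale) against mean NELF fold enrichment over 4 libraries (horizontal, log scale) for short NELF regions listed in both SPT5 libraries, coloured by whether SPT5 was strong in no list, 1 list or both. The sites sit at the low end of both axes and overlap the regions with strong SPT5.

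The order of the sites was less repeatable than that of regions with strong SPT5. Spearman's rho of fold between replicates over the sites was 0.416 for NELFE and 0.345 for NELFB:HA, against 0.738 and 0.712 over the 5687 regions with strong SPT5 in both lists. For SPT5 it was 0.692 over the 235 sites with both values and 0.732 in that set. These are descriptions over regions that share libraries, and the sites cover a narrower range of fold.

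The 10 sites with the highest mean NELF percentile lay at 7 annotated starts, at ends of Rbis and Grina whose direction was not known from the tables used, and inside the lncRNA gene Gm20045.  At Hs3st1 the fold was 6.32 and 4.31 in NELFB:HA, 6.81 and 5.51 in NELFE, and 2.29 and 2.00 in SPT5. The nearest strong SPT5 region lay 957750 bp away, so no strong SPT5 marked the neighbourhood of this start. At Dab2 the fold was 4.0 and 2.97 in NELFB:HA, 7.71 and 8.09 in NELFE, and 1.76 and 1.67 in SPT5. NELFE was therefore well above NELFB:HA at Dab2, and the SPT5 pileups of 8.17 and 12.55 were far under the limits of 11.48 and 19.18.

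At Fam8a1 the order of the subunits differed, with 7.12 and 4.34 in NELFB:HA, 5.67 and 5.49 in NELFE, and 2.30 and 2.21 in SPT5. The 2 NELFB:HA values enclosed the NELFE values there. At Lmbrd1 the fold was 3.71 and 3.55 in NELFB:HA, 6.75 and 6.24 in NELFE, and 1.75 and 1.86 in SPT5. Its SPT5 replicate 2 pileup of 19.15 was the site value nearest the limit, while replicate 1 was lower at 8.61. At Snx14 the fold was 2.70 and 4.84 in NELFB:HA, 6.85 and 6.87 in NELFE, and 2.41 and 2.37 in SPT5. The NELFB:HA replicates lay further apart there than the NELFE replicates did.

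At B2m the fold was 5.62 and 2.89 in NELFB:HA, 5.67 and 5.62 in NELFE, and 1.87 and 2.10 in SPT5. At Pllp it was 5.57 and 3.58 in NELFB:HA, 5.20 and 5.73 in NELFE, and 1.97 and 1.82 in SPT5. In both, every NELF value stood above both SPT5 values, and NELFB:HA replicate 2 was the lowest NELF value. At Rbis, a ribosome biogenesis factor, the NELFE folds were 6.49 and 6.91 and the SPT5 folds 2.41 and 2.23. At Grina, a transmembrane protein of the TMBIM family, the NELFE folds were 6.94 and 5.44 and the SPT5 folds 2.40 and 2.32. The Gm20045 site had NELFE folds of 4.71 and 7.04 with a strong SPT5 region 5856 bp away.

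The 5 lowest mean SPT5 folds among sites listed in both SPT5 libraries belonged to Msx1, Gm11515, Snai3, Ddr1 and Gm31661. At Msx1 the SPT5 folds were 1.48 and 1.46, against 2.93 and 3.19 in NELFB:HA and 2.86 and 4.59 in NELFE. At Snai3, a repressor of the Snail family, the NELFE folds were 2.87 and 6.83 and the SPT5 folds 1.68 and 1.40. Ddr1 encodes a collagen receptor kinase, and its site, inside the gene, had SPT5 folds of 1.57 and 1.52 with 4 NELF folds between 2.48 and 3.16. The -log10 q of SPT5 at Msx1 was 0 in both replicates.

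Of the 11 sites with no SPT5 region of any strength, 4 lay at annotated gene starts (Cgnl1, Slc29a3, H2-D1 and Mak), 1 at an end of Rhpn1, 4 inside genes (Gm16332, Arntl2, Zc3h7a and the span shared by Cmss1 and Filip1l) and 2 between genes. The site in the pseudogene Gm16332 ranked first by NELF, with folds of 4.29 and 3.78 in NELFB:HA and 4.43 and 4.84 in NELFE. The Cgnl1 start had 2.53 and 2.42 in NELFB:HA and 3.94 and 3.73 in NELFE. The site in the clock gene paralog Arntl2, 9081 bp from a start, had 2.65 and 2.83 in NELFB:HA and 3.14 and 3.90 in NELFE. The rule asked for a strong region in all 4 NELF lists, and these 3 sites were picked for having no SPT5 region. Both traits are therefore descriptions.

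Among the other sites with no SPT5 region, singled out after their values were seen, H2-D1 had 2.65 and 2.41 in NELFB:HA and 4.09 and 2.97 in NELFE, and Slc29a3 had 3.75 and 2.24 in NELFB:HA and 3.22 and 3.73 in NELFE. The site of 277 bp shared by Cmss1 and Filip1l (chr16:57391352-57391628) had pileups of 134.6, 136.6, 111 and 41.84 in NELFB:HA 1 and 2 and NELFE 1 and 2, the highest of any site in the first 3 of these libraries. Its folds were 2.14, 2.52, 1.83 and 2.16. Fold is pileup over local input, so the local input there was high as well. The Zc3h7a site had the same pattern, with pileups of 70.4, 59.9, 63.2 and 22.1 and folds of 1.82, 2.75, 1.38 and 1.95. The part of the high input at these sites was not tested.

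Distance set the sites apart from domains of strong SPT5 to different degrees. The nearest strong SPT5 region lay a median of 36852 bp away (6 to 2561693). It was within 1000 bp at 3 sites and within 10000 bp at 44 (16.6%), and 113 sites (42.6%) had none within 50000 bp. The closest, at 6 bp, was a site between genes at chr13:12901352-12902384 with 4 NELF folds between 1.42 and 1.64. SPT5 regions of 5000 bp or more overlapped 31 sites (11.7%), so some weak SPT5 was part of wide regions.

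Few sites shared a place. Another site lay within 10000 bp at 7 sites, which were 3 at Myo1c, 2 at Maml3 and 2 at Phox2a. The 3 Myo1c sites overlapped the same NELFB:HA replicate 2 region (fold 2.84), so they are not independent. Myo1c encodes an unconventional myosin, Maml3 a Notch coactivator and Phox2a a homeobox factor of autonomic neurons.

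Sites without strong SPT5 lay at gene starts less often than short NELF regions with strong SPT5. An annotated start was within 1000 bp of 162 sites (61.1%, 95% Wilson interval 55.1 to 66.8), against 77.2% of the 5687 regions with strong SPT5 in both lists. The difference was -16.0 percentage points (95% Newcombe interval -22.1 to -10.3). It was of like size with the rows of each NELF list as the sites, from -14.7 to -16.0 points over 4 of 4 lists. Within the lowest NELFE pileup band the shares were 57.1% and 66.2%, a difference of -9.16 points (-16.9 to -1.60). In the next band they were 76.0% and 74.3%, a difference of 1.67 points (-12.0 to 11.7), so there the difference was not detectable. Regions are not replicates of a condition, and these intervals and those below cover counting error only.

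Most of the remainder lay inside or between genes. Inside genes away from starts lay 51 sites (19.2%) against 5.56% of regions with strong SPT5 in both lists, a difference of 13.7 points (9.35 to 18.9). Within the lowest pileup band the gene body shares were 19.9% and 10.8%, a difference of 9.08 points (3.54 to 15.6). Between genes lay 22 sites (8.30%) against 3.27%, a difference of 5.03 points (2.23 to 9.0), but within the lowest band 11.0% lay there against 9.26%, a difference of 1.74 points (-2.54 to 7.26) that was not detectable. Another 30 sites (11.3%, against 14%) lay at the end of a gene whose direction the tables used do not give, and some of these are starts. Of regions with strong SPT5 in 1 list, 67.2% lay at starts, and the difference of the sites from them, -6.09 points, had an interval that spanned 0 (-13.2 to 0.885). In gene bodies lay 10.7% of them, a difference of 8.56 points (3.39 to 14.2). Short regions strong in both NELFE lists and in no NELFB:HA or SPT5 list differed most, with 23.5% of 187 at starts and 55.1% in gene bodies.

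**Figure D4:**
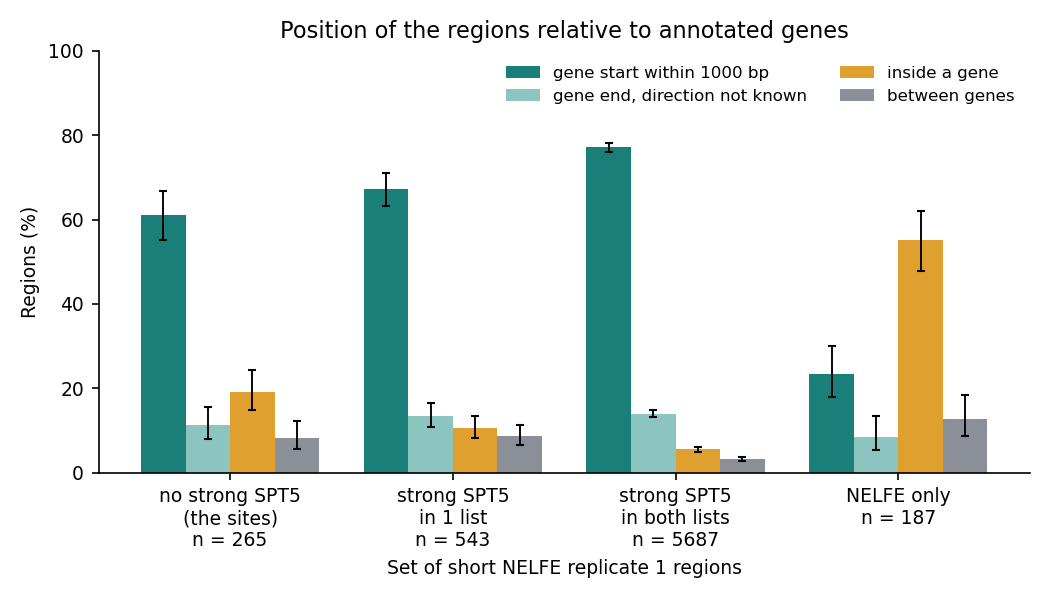
Percent of regions (vertical axis) in 4 position classes for 4 sets of short NELFE replicate 1 regions (horizontal axis), with 95% Wilson intervals as error bars. Gene starts make up 61.1% of the sites and 77.2% of regions with strong SPT5 in both lists, and gene bodies 19.2% and 5.56%.

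The 51 sites in gene bodies lay a median of 8895 bp from the nearest annotated or possible start (1054 to 106106). The 22 sites between genes lay a median of 11648 bp away (2652 to 64029). The farthest from any start was inside Tanc1, a synaptic scaffold gene, 106106 bp away, with folds of 2.80 and 2.44 in NELFB:HA, 4.30 and 5.39 in NELFE, and 2.19 and 2.21 in SPT5. Next came a site in Alk, a receptor tyrosine kinase gene, 86673 bp away, with NELFE folds of 4.68 and 3.91, an SPT5 fold of 1.73 in replicate 1 and no SPT5 region in replicate 2. Sites at chr9:100969056-100970855 and chr14:7727410-7728837, between genes, and a site in the sialyltransferase gene St6galnac3 completed the 5 farthest. At all 5, each NELF fold was above each SPT5 fold measured there.

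Starts at the sites stood alone more often than starts under strong SPT5. Of 155 sites that held an annotated start, 14 (9.03%) held starts on both strands. The count was 923 of 4345 regions (21.2%) with strong SPT5 in both lists and 59 of 354 (16.7%) with strong SPT5 in 1 list. Orientation was not checked, so these counts include starts that face each other and are not shares of divergent promoters. The difference of the sites from strong SPT5 in both lists was -12.2 points (-16.0 to -6.53), and within the lowest pileup band -8.18 points (-13.5 to -0.500). The sites were narrower, and a narrower region can hold fewer starts. The part of width in this difference was not tested.

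The promoter windows at the sites were rich in CpG, with a median below that of windows under strong SPT5 in both lists. Over the 189 RefSeq windows (250 bases before to 50 after a start) with their start in a site, the median ratio of observed to expected CpG was 0.750, against 0.848 over 5997 windows with strong SPT5 in both lists, 0.767 over 464 with strong SPT5 in 1 list and 0.388 over all 31365 windows of the table. Within the lowest pileup band the medians were 0.748 and 0.776. With the 5000 highest regions called strong they were nearly the same, 0.870 at the sites and 0.876 under strong SPT5. By fold they were 0.792 and 0.856, and at a q-value of 1e-05 they were 0.823 and 0.877. A ratio under 0.4 was found in 5 windows (2.65%) at the sites and 51.0% of all windows. GC content was 65% at the sites, 63% under strong SPT5 and 53% in all windows. Within the lowest band the medians of GC content were 66.7% and 61.7%. CpG-poor windows made up 2.88% under strong SPT5, and within the lowest band 2.52% at the sites against 7.16% under strong SPT5, a difference of -4.64 points (-7.33 to 0.276).

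Starts of lncRNA genes made up 13.8% of windows at the sites and 10.4% under strong SPT5, a difference of 3.37 points (-0.900 to 9.05), against 36.1% of all windows. Within the lowest band the shares were 11.8% and 11.8%, with an interval of the difference from -5.37 to 7.26 points. Regions that held exactly 1 start numbered 128 at the sites and 3042 under strong SPT5. In these, the centre of the region lay downstream of the start at 63.3% and 60.8%, a difference of 2.47 points (-6.33 to 10.5). The median offset was 76 bp downstream at the sites and 75.2 bp under strong SPT5. Protein-coding genes with a start at a site spanned a median of 36810 bp, against 23698 bp under strong SPT5 in both lists. With strong SPT5 in 1 list the median was 26986 bp. Within the lowest band the medians were 37838 bp (sites) and 23551 bp (both lists). Genes at the sites were thus over 1.5 times longer in median than under strong SPT5 in both lists, a description with no test.

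The 15 motifs were TATAAA (the TATA box), GGGCGG (the GC box), CCGGAAG (ETS family), GCGCATGC (NRF1), AAGATGGCG (YY1), TGACGTCA (CREB and ATF), TGACTCA (AP-1), CACGTG (the E-box), ATTTGCAT (octamer, POU factors), AGGTCA (nuclear receptors), CATTGT (SOX factors), TGCCGC, then CCAAT (NF-Y), GCGCGAAA (E2F) and TCTCGCGA (a palindrome of housekeeping promoters), each searched on both strands of the windows. None contains another, but matches of different motifs can share bases. CCGGAAG was in 14.3% of windows at the sites, 25.4% under strong SPT5 in both lists and 9.0% of all windows. The difference between the first 2 was -11.1 points (-15.6 to -5.34), and -10.7 points (-15.9 to -3.44) within the lowest pileup band. GCGCATGC was in 2.12% at the sites, 7.42% under strong SPT5 and 2.69% of all windows, a difference of -5.30 points (-6.77 to -2.04), and of -4.79 (-7.16 to -0.271) within the lowest band. Under strong SPT5 in 1 list CCGGAAG was in 15.1% and GCGCATGC in 4.53% of windows, so a low CCGGAAG share was not particular to the sites. A match shows only that the letters are there.

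CCAAT was in 28.0% of windows at the sites, 38.6% under strong SPT5 and 37.3% of all windows, a difference of -10.5 points (-16.6 to -3.61), which within the lowest band was -9.42 points with an interval that reached 0 (-17.8 to 0.0180). TCTCGCGA was in 0.529%, 3.45% and 0.953%, and the lowest band showed no such gap (0.840% and 0.689%). GGGCGG, to which SP and KLF factors bind, was in 74.1%, 71.5% and 35.9% of windows, and within the lowest band in 82.4% at the sites against 68.5%, a difference of 13.9 points (5.41 to 20.7). TATAAA was in 6.88% at the sites, 5.47% under strong SPT5 and 13.6% of all windows. For TATAAA and the other 9 motifs the interval of the difference spanned 0 in the full sets and in the lowest band. Under strong SPT5 in 1 list CCAAT was in 33.8%, TCTCGCGA in 0.862% and GGGCGG in 72.8% of windows, so a low TCTCGCGA share was not particular to the sites. The intervals were not adjusted for the 15 motifs.

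Few genes of the promoter table had a start at the sites, in the lists examined as over all genes. A start within 1000 bp of a site was found for 179 of 25605 genes of the promoter table (0.699%). It was found for 0 of 12 pluripotency factors, although 10 of these had a strong NELFE region, for 0 of 16 immediate-early genes, all 16 with strong NELFE, and for 0 of 52 replication-dependent histone genes, 45 with strong NELFE. It was also 0 of 10 heat shock and chaperone genes, 0 of 18 pausing and release factors, 0 of 9 p53 pathway genes, 0 of 14 imprinted transcripts and 0 of 116 lineage regulators. At 0.699%, fewer than 1 gene would fall at a site in each of these lists, so the zeros are close to the background share and say little about the lists.

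Other lists had 1 to 3 genes at a site. The shares were 1.75% for ribosomal proteins, 0.872% for zinc finger genes and 0.676% for mitochondrial ribosome and respiratory chain genes. The share over all genes was 0.699%. Resting on so few genes, these shares also say little about the lists. Ribosomal protein genes gave 1 of 57, Rpl10l, at which the folds were 4.01 and 2.69 in NELFB:HA, 3.60 and 5.75 in NELFE, and 2.22 and 2.20 in SPT5. Rpl10l is a close copy of Rpl10, and reads shared between such copies may be placed at either. Mitochondrial ribosome and respiratory chain genes gave 1 of 148, Mrpl16, with 3.47 and 2.75 in NELFB:HA, 4.04 and 5.68 in NELFE, and 2.16 in both SPT5 libraries. Zinc finger genes gave 3 of 344, Zfp281, Zfp358 and Zfp783. Zfp281, a factor of embryonic stem cells, had 3.13 and 2.66 in NELFB:HA, 3.08 and 3.65 in NELFE, and 2.15 and 2.00 in SPT5.

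Short RNA genes were counted by any part of the gene within 1000 bp of a site, which held for 304 of 46710 genes of the gene table (0.651%). Of 1144 microRNA genes, 2 lay at a site, Mir574 at the Fam114a1 start and Mir1905 at Mex3a. Of 2256 small RNA genes, 2 did, Gm23971 and LOC115488883, and of 450 tRNA genes, a list added after the data were seen, 1 did, n-TGccc7 beside the Mettl26 start. At Mettl26 the folds were 2.99 and 2.87 in NELFB:HA, 5.46 and 6.78 in NELFE, and 1.86 and 1.88 in SPT5. A strong NELFE region of any kind lay at 267 of the tRNA genes (59.3%).

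The NELF regions were narrower at the sites. The median width was 1528 and 1541 bp in NELFB:HA and 1279 and 1289 bp in NELFE at the sites, against 2085 and 2337 bp in NELFB:HA and 1659 and 1974 bp in NELFE under strong SPT5 in both lists. The sites were narrower in 4 of 4 libraries, with a mean difference of -604.5 ± 178.7 bp (SD, n = 4 libraries; two-sided exact sign-flip permutation p = 0.125, the smallest that 4 libraries allow). Within the lowest pileup band the mean difference was -459.5 ± 39.9 bp (SD, n = 4; the same exact permutation p = 0.125). The rule limits the width in NELFE replicate 1 in both sets. The 4 libraries read 1 complex over the same regions, which were chosen by their own pileup. They are not 4 independent replicates, so no conclusion is drawn from these p-values.

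Median widths were larger in NELFB:HA than in NELFE at the sites. The rule took NELFE replicate 1 regions under 3000 bp and put no limit on the other lists, where 29 and 46 sites in NELFB:HA and 25 in NELFE replicate 2 overlapped regions of 3000 bp or more. The width difference is therefore a description, with no test. The library medians averaged 1534 ± 9.19 bp for NELFB:HA and 1284 ± 7.07 bp for NELFE (SD, n = 2 each), a difference of 250.5 bp. It was 187 bp with sites taken from NELFB:HA replicate 1 regions and 140 bp with NELFB:HA replicate 2 regions, where the limit lies on that list. At 57 of the 265 sites the region was wider in both NELFB:HA libraries than in both NELFE libraries. Under strong SPT5 the difference was 394.5 bp, with 1585 of 5687 regions wider in both NELFB:HA libraries.

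**Figure D5:**
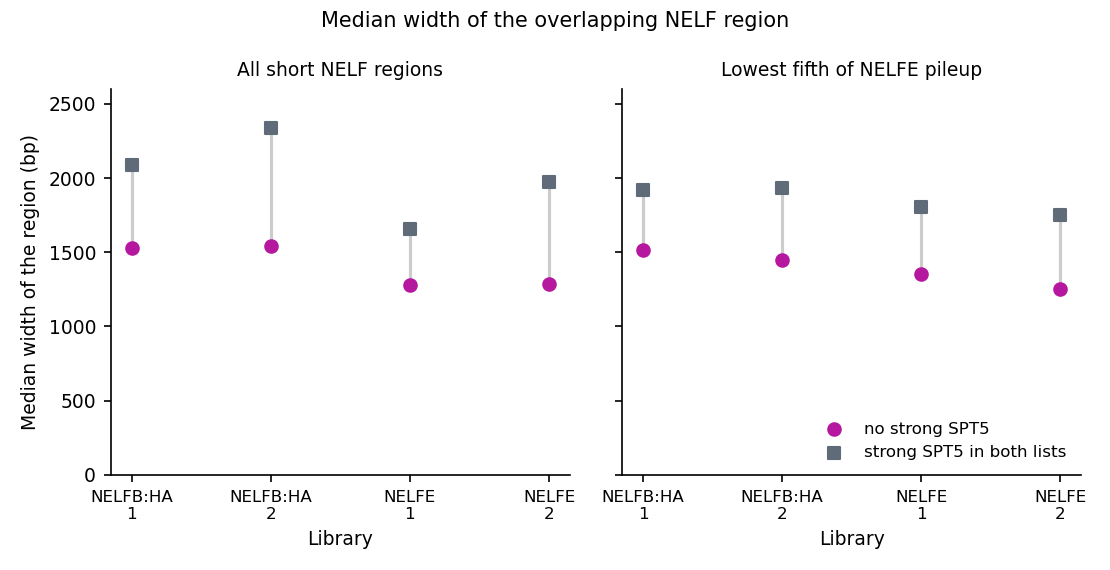
Median width in bp (vertical axis) of the NELF region in 4 libraries (horizontal axis) for sites without strong SPT5 (circles) and short NELF regions with strong SPT5 in both lists (squares), over all regions at left and within the lowest NELFE pileup band at right. The circles lie below the squares in 4 of 4 libraries in both panels.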

How the data were processed

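ChIP-seq peak lists of 6 control libraries were used. Peaks were called by the authors with MACS2 2.1.1.20160309 in broad mode, 1 library at a time against an input, with p cutoffs of 0.01 (strong) and 0.1 (weak) and 1 tag kept per position, per the file headers. Bowtie2, deepTools and mm10 are named in the submitters' processing notes. The deposited columns hold pileup (a coverage signal), fold enrichment (a ratio), -log10 p and -log10 q. The headers say that q was not calculated, yet the column holds values, which were used as deposited. Replicates were not pooled, and the labels do not say whether they are separate cultures. p-values over libraries therefore measure only the spread between these libraries.

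Regions were matched by 1 bp or more of overlap. At each site a library's value is that of its region with the longest overlap, which is not always the strong one. Gene starts came from the RefSeq promoter table of GRCm38.p6, whose windows match 25605 genes, and gene spans from the RefSeq gene table. Genes without a promoter entry have no known direction. Shares have 95% Wilson intervals and differences Newcombe intervals (statsmodels 0.14.6, Python 3.11.15). The site rule was tested on simulated lists.

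Members, lists and tests were chosen with earlier results of these data known. The named sites are the 10 of highest mean NELF fold percentile, the 5 of lowest mean SPT5 fold, the 3 highest ranked without SPT5, those at the limits, those at listed genes (up to 5 a list) and the 5 farthest from a start.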

Additional observations from a re-analysis of the deposited data

How the results depend on the processing

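Of 150 alternative values over 24 settings and 7 results, 104 stayed close to the main value, 46 moved and 0 reversed. Only the width difference, judged by its sign alone, could be labelled reversed. Some labels were fixed in advance, since settings that only widen the rule keep all 265 sites. A close count does not mean the same sites. The 211 sites with the 5000 highest regions were labelled close, but only 3 of the 265 overlapped one of them. The tally is therefore no measure of robustness. The number of sites (265) became 434 with regions ranked by fold, 632 with a q-value of 0.01 or less, 677 with 1e-05 or less, 154 with NELF regions also at 0.01 or less, 32 with the 20000 highest regions for SPT5 alone, and 311 to 661 with 1 library left out. The share of short NELF regions (4.08%) became 7.35% with the 5000 highest regions, 7.53% by fold, 5.32% by -log10 p, 10.4% at a q-value of 0.01, 16.1% at 1e-05, 2.64% with NELF also at 0.01, 0.493% with 20000 for SPT5 alone, 3.53% without a length limit, 5.03% under 2000 bp, and 4.63% to 10.2% with 1 library left out. The share at gene starts (61.1%) became 75.8% with the 5000 highest regions, 40.4% with 20000, 77.3% at a q-value of 1e-05 and 50% with 20000 for SPT5 alone, and stayed at 58.1% to 65.8% with 1 library left out. The share with SPT5 listed in both replicates (88.7%) became 99.5% with the 5000 highest regions, 48.1% with 20000 and 96.3% by fold. It became 95.7% at a q-value of 0.01, 99.7% at 1e-05, 92.9% with NELF also at 0.01 and 40.6% with 20000 for SPT5 alone. With 1 NELF library left out it was 83.8% to 88.9%. With SPT5 replicate 1 or 2 left out, only the remaining SPT5 list was counted, and the shares listed there were 86.65% and 97.3%. The causes were not tested. The q-value of 1e-05, the NELF q-value and the 20000 regions for SPT5 alone were chosen after seeing the data.

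These sets hold different regions. Of the 265 sites, 3 overlapped a site under the 5000 highest regions, 32 under 20000, 83 by fold, 110 by -log10 p, 135 at a q-value of 0.01, 27 at 1e-05 and 32 with 20000 for SPT5 alone. The width difference between NELFB:HA and NELFE kept its sign in every setting run, from 140 bp with sites taken from NELFB:HA replicate 2 to 338 bp with the 5000 highest regions, and from 211.5 to 324.2 bp with 1 library left out. It was 156.5 bp with 20000 for SPT5 alone and 187 bp both with sites from NELFB:HA replicate 1 and at a q-value of 1e-05. With same-numbered libraries as a replicate block it was 250.5 bp (block differences 249 and 252, SD 2.12). The width limit of the rule bears on NELFE replicate 1 alone, so no test of it is read. Replicate differences of fold correlated at -0.00475, -0.0192 and -0.0132 between antibodies, so no pairing by replicate number was seen. These values cannot exclude that same-numbered libraries share a culture, which the labels do not give. CpG content of whole regions and motifs in sites without a start were not run, since no genome of the build was used here. With 2 libraries an antibody, no exact test between antibodies can give a p under 0.333.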
